A study of Mus musculus with 6 samples.

Results

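Genes of potassium channel subunits were examined in frontal cortex from 129S6/SvEv mice, wild type, after repeated treatment with SAHA (suberoylanilide hydroxamic acid, vorinostat), an inhibitor of zinc-dependent histone deacetylases. Members were all genes on the array whose symbol starts with Kcn and a further lower-case letter. The rule found 92 of the 19938 genes tested, and used no measured difference. The mice were 8 to 12 weeks old. The SAHA group (3 libraries) received 20 mg per kg for 21 days and the control group (3 libraries) received vehicle, named saline in the sample titles. Cortex was taken 1 day after the last injection. Both groups share strain, genotype and tissue. Nothing in the labels ties each library to its own mouse, so p-values here measure only how far these libraries spread, and that spread may be technical.

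Potassium channels let potassium leave the cell along its gradient and so set the resting potential, end the action potential and limit repetitive firing. Most neuronal ones are tetramers of pore-forming alpha subunits. Voltage-gated families (Kcna to Kcnd, Kcnh, Kcnq) open on depolarization, inward rectifiers (Kcnj) hold the membrane near rest, and two-pore domain channels (Kcnk) carry leak current. Calcium- and sodium-activated families (Kcnm, Kcnn, Kcnt) couple firing to ion entry. Silent subunits (Kcnf, Kcng, Kcns, Kcnv) and auxiliary proteins (Kcnab, Kcne, Kcnip, Kcnmb) change the gating or the delivery of these pores.

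Signal was measured as 1 RMA value per probe set on a log2 scale, on 1 whole-transcript array per library. RMA subtracts background, equalizes the probes' distributions over arrays and summarizes the probes of a set. Signals of different genes depend on their probes, so levels are compared between groups and never between genes. In cortex dissected as a whole, fewer cells of a type and less RNA per cell cannot be told apart. Of the marker genes measured, 7 of 7 of excitatory neurons, 8 of 8 of GABAergic interneurons and 10 of 10 of astrocytes had a mean signal at or above the median of all genes, 6.94. Xist, expressed from the inactive X chromosome, was at 10.9 in saline replicate 1 and between 4.63 and 4.88 elsewhere. The Y-linked Eif2s3y was at 7.80 in SAHA replicate 3 and between 9.18 and 9.25 elsewhere. These 2 libraries stand apart and are included unless stated. Of 8 listed blood cell markers, 5 were measured. On the deposited values, 4 of the 5 were higher in SAHA at an unadjusted p under 0.05 and with separate groups. At that p 11.9% of all genes were higher and 5.56% lower, and 19.6% of genes below the median signal were higher. With separate groups 13.6% of all genes were higher and 10.4% lower, and 20% of genes below the median signal were higher. The log2 of the summed signal of the 5 markers was 8.52 to 8.64 in saline and 8.76 to 8.89 in SAHA. Only 1 of the 5, Alas2, lay at or above the median signal, and it differed by 0.044. Oligodendrocyte markers had a median difference of -0.13 over 9 genes, none at that p, and in SAHA the library medians against the saline mean were -0.24, -0.20 and 0.12. Of 6 striatal neuron markers, 1 was lower at that p, Tac1 at -0.43, and the library medians were higher in saline replicate 3 and SAHA replicate 3 (0.21 and 0.20) than in the others (-0.22 to -0.027). Among markers of cortical neurons, Neurod6 of excitatory cells and Vip of interneurons were lower at that p, at -0.23 and -0.20. Lhx6 of interneurons was higher at that p, at 0.18. Of the 7 excitatory markers, 3 were higher with separate groups and 1, Neurod6, lower with separate groups, at a list median of -0.014. Of the 8 interneuron markers, 4 were higher, 2 of them with separate groups, and 0 were lower with separate groups, at a list median of 0.014. The part of these cell types in the results on channels was not tested. Kcnn4, the calcium-activated channel of red blood cells, differed by 0.069 (95% interval -0.18 to 0.32).

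The comparison asks which channel transcripts differ after repeated deacetylase inhibition. Transcripts of most subunits lay close together in both groups: 58 of the 92 members differed by under 0.1 log2 in either direction, and the extremes were 0.33 for Kcnk12, a two-pore domain subunit, and -0.34 for Kcnf1, a silent subunit. No member passed the test over all genes. limma with Benjamini-Hochberg adjustment called 0 members and 0 of all genes (0%), with lowest adjusted p of 0.124 among members and 0.116 among all genes. At an unadjusted p under 0.05 in limma lay 12 members (13%), against 17.4% of all genes. Of these, 9 were higher in SAHA (9.78% of members, against 11.9% of all genes) and 3 lower (3.26%, against 5.56%). Each of these shares was below that of all genes. The 3 SAHA values lay wholly on one side of the 3 saline values for 20 members (21.7%, against 23.9% of all genes): 14 were higher (15.2%, against 13.6%) and 6 lower (6.52%, against 10.4%). The median difference was 0.013 over the members and 0.011 over all genes. Both turned under median centring, to -0.026 and -0.028. The median signal of the arrays over all 35556 probe sets was 6.66 to 6.71 in saline and 6.72 to 6.75 in SAHA. Centring used the array medians over the 19938 genes tested. For 89 members the 95% interval of the difference lay within 0.5 log2 of 0, and for 58 within 0.3. Outside 0.5 were Kcnk12, Kcnf1 and Kcnk5.

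**Figure D1:**
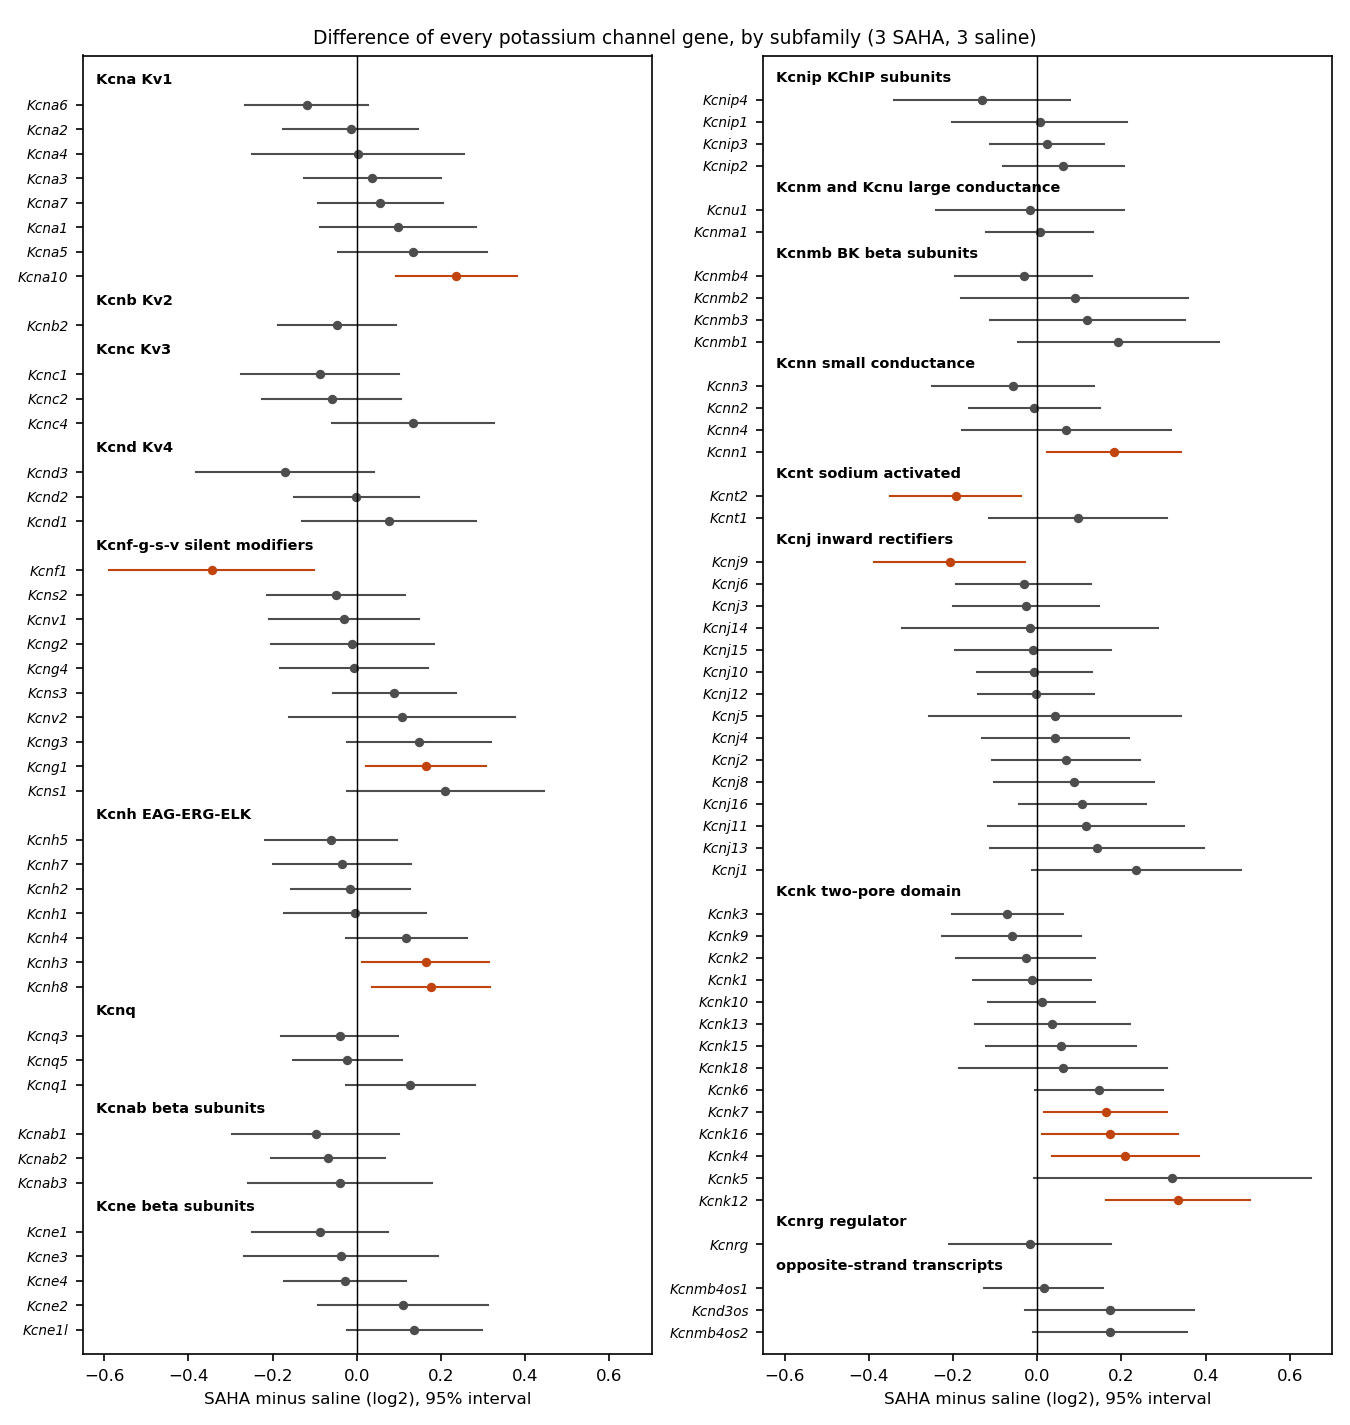
Difference of each of the 92 genes (horizontal axis, SAHA minus saline in log2, dots) with its 95% interval from limma (lines), grouped by subfamily. The 12 genes in orange, at an unadjusted p under 0.05, are spread over the Kcna, silent modifier, Kcnh, Kcnn, Kcnt, Kcnj and Kcnk groups, and most other intervals are centred near 0.

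The 2 members of smallest p in each direction were Kcnk12 and Kcna10, higher in SAHA, and Kcnf1 and Kcnt2, lower. Kcnk12 encodes a two-pore domain subunit that conducts little current by itself. It was at 6.91, 6.99 and 6.79 in saline and at 7.14, 7.28 and 7.27 in SAHA, with all SAHA values above all saline values. The difference was 0.33 (SE 0.074, limma adjusted p = 0.124), a signal 1.26-fold higher in SAHA. Kcna10 encodes a Kv1 subunit of sensory hair cells, and its signal lay below the median of all genes. Its values were 5.85, 5.89 and 5.77 in saline and 6.04, 6.04 and 6.13 in SAHA, a difference of 0.24 (SE 0.062, limma adjusted p = 0.150). Here too the groups did not overlap.

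Kcnf1 encodes a silent subunit that joins Kv2 pores. Its signal was 7.12, 6.84 and 6.84 in saline and 6.42, 6.69 and 6.65 in SAHA, so saline replicate 1 was the highest and SAHA replicate 1 the lowest value. The difference was -0.34 (SE 0.105, limma adjusted p = 0.182), or -0.28 without the 2 libraries that stand apart. Kcnt2 encodes the sodium-activated channel Slick. It was at 10.23, 10.28 and 10.20 in saline and at 10.03, 10.14 and 9.96 in SAHA, a difference of -0.19 (SE 0.067, limma adjusted p = 0.215). All 3 SAHA values lay under the saline values, by a narrow margin for SAHA replicate 2.

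The upstream sequences of these 4 genes are shown because the members of smallest p in opposite directions can be set side by side there. Each is the 250 bases before the gene's start in RefSeq (GRCm38.p6), written 5′ to 3′ on the strand of the gene. Capitals mark a GC box (GGGCGG or its reverse complement CCGCCC) or a CCAAT box (CCAAT or its reverse complement ATTGG).
Kcnk12: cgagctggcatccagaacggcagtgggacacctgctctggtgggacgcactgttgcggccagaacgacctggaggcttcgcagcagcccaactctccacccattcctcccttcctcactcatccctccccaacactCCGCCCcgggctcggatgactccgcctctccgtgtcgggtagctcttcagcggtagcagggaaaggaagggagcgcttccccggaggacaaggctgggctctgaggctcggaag
Kcna10: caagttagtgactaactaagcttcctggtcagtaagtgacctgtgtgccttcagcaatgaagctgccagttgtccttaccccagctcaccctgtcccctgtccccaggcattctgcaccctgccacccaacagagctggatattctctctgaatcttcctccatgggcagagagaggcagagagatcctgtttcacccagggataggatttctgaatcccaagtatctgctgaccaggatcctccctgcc
Kcnf1: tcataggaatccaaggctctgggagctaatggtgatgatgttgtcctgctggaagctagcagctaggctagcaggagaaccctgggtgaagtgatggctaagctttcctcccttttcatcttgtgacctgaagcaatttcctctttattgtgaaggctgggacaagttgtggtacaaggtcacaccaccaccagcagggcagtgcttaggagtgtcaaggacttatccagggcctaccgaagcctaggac
Kcnt2: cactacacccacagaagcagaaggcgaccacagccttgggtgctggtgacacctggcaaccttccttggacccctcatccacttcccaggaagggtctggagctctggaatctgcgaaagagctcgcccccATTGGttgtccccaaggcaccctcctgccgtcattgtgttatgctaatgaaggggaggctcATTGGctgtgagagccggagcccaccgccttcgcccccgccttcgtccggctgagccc
The sequence of Kcnk12 lies at chr17:87797995-87798244 (minus strand), that of Kcna10 at chr3:107182893-107183142 (plus strand), that of Kcnf1 at chr12:17176889-17177138 (minus strand) and that of Kcnt2 at chr1:140245468-140245717 (plus strand). Kcnk12 held 1 GC box, starting 114 bases before the start, and Kcnt2 held 2 CCAAT boxes, at 119 and 58 bases before it. Kcna10 and Kcnf1 held none of the motifs searched, which also included the TATA box TATAAA and the cAMP response element TGACGTCA, each on both strands; no motif overlaps another in these letters. G and C made up 64.8% of the Kcnk12 stretch, 61.6% of that of Kcnt2, 53.2% of that of Kcna10 and 51.2% of that of Kcnf1, against a median of 58.8% over 95 promoters of 70 members with an entry and 52.4% over all 32851 promoters. A GC box was found in 44.2% of the members' promoters and in 32.7% of all promoters, a CCAAT box in 29.5% and 33.8%, and a TATA box in 3.16% and 12.4%. The cAMP response element was found in 0 of the 95 and in 1.55% of all promoters. Among the 12 members at an unadjusted p under 0.05, a GC box was found at 5 genes higher in SAHA (Kcnk12, Kcnk4, Kcnk7, Kcnh8 and Kcnn1) out of 7 with an entry, and at 0 of the 3 lower ones. A CCAAT box was found at 1 of those higher genes (Kcnn1) and at 2 of the lower (Kcnj9 and Kcnt2), and a TATA box at 0 of the higher and 1 of the lower (Kcnj9). So few genes give no more than a description.

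**Figure D2:**
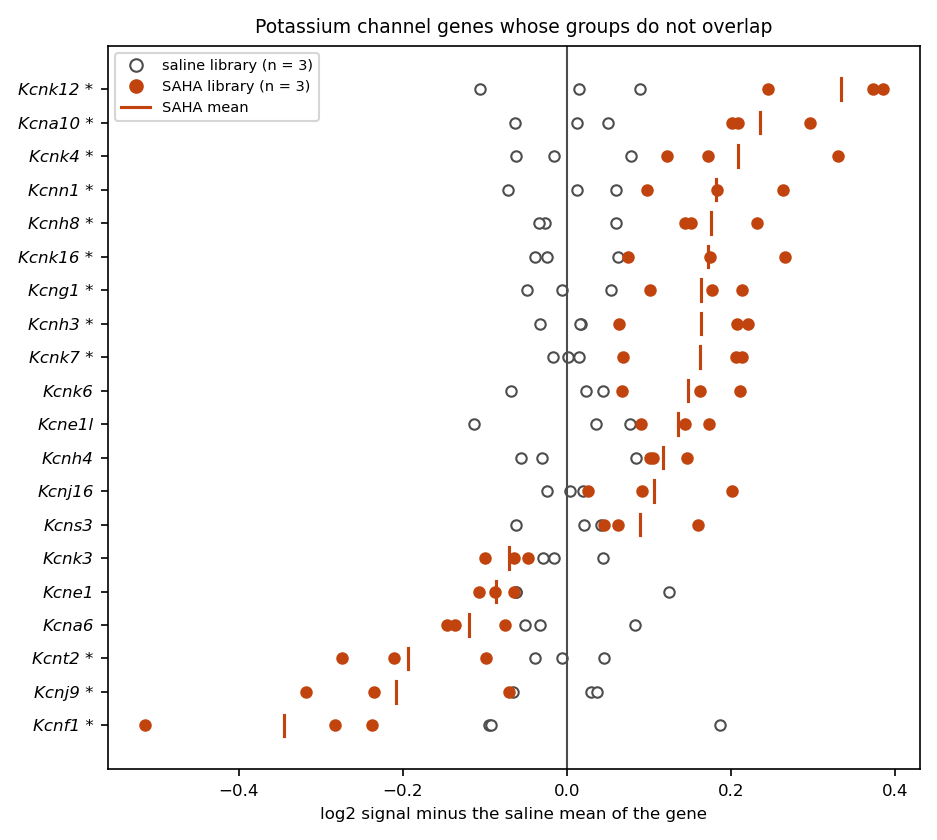
Signal in each library for the 20 members whose groups do not overlap, as log2 signal minus the saline mean of the gene (horizontal axis). Open circles are saline libraries (n = 3), filled circles SAHA libraries (n = 3), vertical ticks SAHA means, and asterisks mark the 12 genes at an unadjusted p under 0.05; the widest gaps between groups are those of Kcnk12, Kcna10 and Kcnf1, while the groups of Kcnj9, Kcne1, Kcnj16 and Kcns3 nearly meet.

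The channels of the Kv1 genes (Kcna) hold back firing near the axon initial segment and along the axon. Of these genes 1 of 8, Kcna10, lay at an unadjusted p under 0.05, against 17.4% of all genes. The axonal subunits Kcna1 and Kcna2 differed by 0.098 (95% interval -0.09 to 0.28) and -0.015 (95% interval -0.17 to 0.15). In Kcna1, saline replicate 1 stood lowest at 8.26, and the 5 other libraries lay between 8.45 and 8.56; without it the difference was 0.022. A second, dimmer probe set of Kcna2 differed by -0.10. Kcna6 was at 8.01, 8.00 and 8.13 in saline and at 7.97, 7.90 and 7.91 in SAHA. Its groups did not overlap, at a difference of -0.12 (SE 0.063, limma adjusted p = 0.359). Kcna3, Kcna4, Kcna5 and Kcna7 differed by 0.037, 0.0030, 0.13 and 0.056, with overlapping groups.

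The delayed rectifiers and A-type channels of the soma and dendrite gave no member under that p, where 17.4% of all genes lay under it. Kcnb2, the Kv2 subunit measured here, differed by -0.046 (95% interval -0.19 to 0.09). The Kv3 genes allow fast firing, as in Pvalb-expressing interneurons. Kcnc1 and Kcnc2 differed by -0.087 (95% interval -0.27 to 0.10) and -0.059 (95% interval -0.22 to 0.11), and Kcnc4 by 0.13. Of the Kv4 genes, which carry the A-type current of dendrites, Kcnd2 was at 10.35, 10.43 and 10.29 in saline and 10.38, 10.39 and 10.30 in SAHA. Its difference, -0.0010 (95% interval -0.15 to 0.15), was the smallest of the members. Kcnd3 was at 7.69, 7.81 and 7.68 in saline and 7.61, 7.37 and 7.69 in SAHA. SAHA replicate 2 was the lowest, and the difference was -0.17 (SE 0.091, limma adjusted p = 0.365), or -0.077 without that library and -0.25 without the 2 libraries that stand apart. The X-linked Kcnd1 differed by 0.076, or 0.044 without those 2 libraries.

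Silent subunits form no channel by themselves and modify Kv2 pores. Of these 10 genes, 1 was higher and 1 lower at an unadjusted p under 0.05, against 11.9% and 5.56% of all genes. Kcng1 was at 7.43, 7.39 and 7.49 in saline and at 7.65, 7.54 and 7.61 in SAHA, with separate groups and a difference of 0.16 (SE 0.062, limma adjusted p = 0.242). Kcnf1, lower in SAHA, is described above, so the silent partners of one pore family lay on opposite sides. Kcns3, a subunit of parvalbumin interneurons, was at 7.41, 7.39 and 7.31 in saline and 7.53, 7.42 and 7.43 in SAHA, groups that did not overlap. It differed by 0.089 (SE 0.063, limma adjusted p = 0.480). Kcns1 and Kcng3 differed by 0.21 and 0.15 with overlapping groups. The remaining 5 genes lay between -0.050 for Kcns2 and 0.11 for Kcnv2.

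The Kcnh genes fall into the EAG, ERG and ELK branches. Of the 7 genes, 2 were higher and 0 lower at an unadjusted p under 0.05 in limma, against 11.9% and 5.56% of all genes. Both belong to the ELK branch, slow channels that open near rest. Kcnh8 was at 6.17, 6.16 and 6.26 in saline and at 6.43, 6.35 and 6.34 in SAHA, a difference of 0.18 (SE 0.061, limma adjusted p = 0.215). Kcnh3 was at 7.70, 7.70 and 7.65 in saline and at 7.74, 7.90 and 7.89 in SAHA, a difference of 0.16 (SE 0.065, limma adjusted p = 0.257). Both genes had separate groups, with SAHA replicate 1 of Kcnh3 close to the saline values. Kcnh4, the remaining ELK gene, was at 7.60, 7.63 and 7.74 in saline and at 7.76, 7.81 and 7.76 in SAHA. Its groups did not overlap and its difference was 0.12 (SE 0.062, limma adjusted p = 0.358). The EAG genes Kcnh1 and Kcnh5 differed by -0.0041 and -0.061, and the ERG genes Kcnh2 and Kcnh7 by -0.015 and -0.036, all with overlapping groups. The branch was singled out after these values were seen, and a difference between branches was not tested. A second probe set of Kcnh8 differed by 0.19, beside 0.18 for the brighter one, and each set lay below the median signal of all genes. The values of the second set overlapped between groups, with 5.70, 5.72 and 5.76 in saline and 5.95, 5.67 and 6.12 in SAHA.

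Kcnq subunits carry the M-current, which muscarinic receptors close. Kcnq3 was at 9.68, 9.73 and 9.60 in saline and at 9.63, 9.61 and 9.64 in SAHA, a difference of -0.040 (95% interval -0.18 to 0.10). Kcnq5 differed by -0.022 (95% interval -0.15 to 0.11). Kcnq1, known from heart and ear and dim here, differed by 0.13, with overlapping groups.

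None of the 16 auxiliary subunits lay at an unadjusted p under 0.05 in limma, where 17.4% of all genes did. The Kv1 beta subunits Kcnab1, Kcnab2 and Kcnab3 differed by -0.097, -0.068 and -0.040, and after quantile normalization Kcnab2 and Kcnab3 turned to 0.0040 and 0.0094. The Kv4 partners Kcnip1, Kcnip2, Kcnip3 and Kcnip4 differed by 0.0055, 0.062, 0.023 and -0.13. Kcnip3 is also known as DREAM, a calcium-dependent transcriptional repressor, and its 95% interval was -0.11 to 0.16. In Kcnip4 saline replicate 1 stood highest, at 10.24, and the difference was -0.011 without the 2 libraries that stand apart. The 5 Kcne genes all lay below the median signal. The X-linked Kcne1l was at 6.90, 6.86 and 6.71 in saline and all 3 SAHA values lay above these, with a difference of 0.14 (SE 0.069, limma adjusted p = 0.345), or 0.16 without those libraries. Kcne1 was at 5.30, 5.49 and 5.30 in saline and at 5.28, 5.30 and 5.26 in SAHA, a difference of -0.087 (SE 0.070), with saline replicate 2 far above the other libraries. Kcne2, Kcne3 and Kcne4 differed by 0.11, -0.038 and -0.028.

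Large-conductance channels open with calcium and depolarization together. Their pore gene Kcnma1 was at 10.20, 10.23 and 10.20 in saline and at 10.18, 10.24 and 10.22 in SAHA, a difference of 0.0055 (95% interval -0.12 to 0.13). A second probe set of Kcnma1, with a mean signal of 4.52, differed by 0.36, so the average of both sets gives 0.18. Its values overlapped between groups, with 4.42, 4.45 and 4.15 in saline and 4.98, 4.31 and 4.80 in SAHA. The neuronal beta subunit Kcnmb4 differed by -0.032 (95% interval -0.19 to 0.13), and Kcnmb1, Kcnmb2 and Kcnmb3 by 0.19, 0.089 and 0.12. The sperm channel Kcnu1 differed by -0.017.

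Small-conductance channels carry the afterhyperpolarization that follows a spike. Kcnn1 was at 6.75, 6.80 and 6.67 in saline and at 6.84, 7.01 and 6.92 in SAHA, with separate groups and a difference of 0.18 (SE 0.069, limma adjusted p = 0.243). Kcnn2 and Kcnn3 differed by -0.0068 (95% interval -0.16 to 0.15) and -0.058 (95% interval -0.25 to 0.14), with overlapping groups. Of the sodium-activated pair, Kcnt2 was lower, as given above, while Kcnt1, or Slack, was at 8.44, 8.68 and 8.67 in saline and at 8.56, 8.80 and 8.72 in SAHA. Kcnt1 groups overlapped, at a difference of 0.097 (95% interval -0.11 to 0.31), which was 0.019 without saline replicate 1, its lowest library, and 0.0089 without the 2 libraries that stand apart.

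Among the 15 inward rectifiers, 1 was lower and 0 were higher at an unadjusted p under 0.05 in limma, against 5.56% and 11.9% of all genes. Kcnj9 encodes a subunit of the G-protein-gated channels through which GABA-B, serotonin and dopamine receptors hyperpolarize neurons. It was at 8.04, 8.13 and 8.14 in saline and at 7.87, 8.03 and 7.79 in SAHA. SAHA replicate 2 lay just under saline replicate 1, and the difference was -0.21 (SE 0.078, limma adjusted p = 0.239). The other subunits of these channels overlapped between groups: Kcnj3 differed by -0.027 (95% interval -0.20 to 0.15), Kcnj6 by -0.032 (95% interval -0.19 to 0.13) and the dim Kcnj5 by 0.041 (95% interval -0.26 to 0.34).

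Kcnj10 and Kcnj16 form the glial channel that clears extracellular potassium. Kcnj10 was at 8.62, 8.68 and 8.62 in saline and at 8.62, 8.59 and 8.70 in SAHA, a difference of -0.0065 (95% interval -0.14 to 0.13). Kcnj16 was at 8.22, 8.21 and 8.18 in saline and 8.23, 8.41 and 8.30 in SAHA. The groups of Kcnj16 nearly met, and the difference was 0.11 (SE 0.065, limma adjusted p = 0.421). Of the astrocyte markers, 5 of 10 were higher and none lay at an unadjusted p under 0.05, where 17.4% of all genes did. Kcnj8, the pore of the channel in pericytes, differed by 0.087 (95% interval -0.10 to 0.28). Kcnj13, a gene of choroid plexus and other epithelia, was lowest in saline replicate 1, at 8.16, and between 8.41 and 8.62 in the other libraries. Its difference was 0.14 (SE 0.11) with all libraries and -0.00032 without the 2 that stand apart. Of 7 measured choroid plexus markers, 1 reached the median signal. At an unadjusted p under 0.05, 1 of the 7 was higher, against 11.9% of all genes and 19.6% of genes below the median signal. The log2 of their summed signal was 8.67 to 9.17 in saline and 8.86 to 8.90 in SAHA, and their part in Kcnj13 was not tested. The strong rectifiers Kcnj2, Kcnj4 and Kcnj12 differed by 0.067, 0.043 and -0.0022, and Kcnj11, the pore of the ATP-sensitive channel, by 0.12. Kcnj1, the renal channel, differed by 0.24 with SAHA replicate 3 below the saline values and the other SAHA libraries above them, and Kcnj14 and Kcnj15 by -0.017 and -0.0098.

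Two-pore domain genes held 4 of the 9 members that were higher at an unadjusted p under 0.05, among 14 genes measured, and none that was lower, where 11.9% and 5.56% of all genes did so. No test set this family against other genes. Beside Kcnk12 these were Kcnk4, Kcnk7 and Kcnk16. Kcnk4 encodes TRAAK, a leak channel opened by membrane tension and lipids. It was at 7.33, 7.43 and 7.29 in saline and at 7.47, 7.52 and 7.68 in SAHA, a difference of 0.21 (SE 0.075, limma adjusted p = 0.228). SAHA replicate 3 was the highest value, and the difference was 0.14 with that library and saline replicate 1 left out. Kcnk7, a relative of Kcnk1 without a known current, was at 6.20, 6.17 and 6.19 in saline and at 6.40, 6.26 and 6.40 in SAHA, a difference of 0.16 (SE 0.063, limma adjusted p = 0.249). Kcnk16, a channel of pancreatic beta cells, was at 6.32, 6.24 and 6.22 in saline and at 6.34, 6.53 and 6.44 in SAHA, a difference of 0.17 (SE 0.070, limma adjusted p = 0.264). The groups of all 3 genes were separate, that of Kcnk16 by the least.

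Kcnk7 and Kcnk16 lay below the median signal, where higher values in SAHA were common among all genes. Kcnk6, a lysosomal channel, was at 6.82, 6.71 and 6.80 in saline and at 6.99, 6.84 and 6.94 in SAHA, a difference of 0.15 (SE 0.066, limma adjusted p = 0.298). Kcnk5, an acid-sensitive channel of epithelia, was at 5.44, 5.23 and 4.83 in saline and at 5.42, 5.48 and 5.56 in SAHA. Saline replicate 1 lay within the SAHA values of Kcnk5, and its interval was the widest of the members, -0.01 to 0.65 around 0.32. The background leak channels Kcnk1 (TWIK), Kcnk2 (TREK), Kcnk3 and Kcnk9 (both TASK) differed by -0.012, -0.028, -0.071 and -0.061, with intervals between -0.23 and 0.14. Of these the groups of Kcnk3 did not overlap, at 7.77, 7.83 and 7.75 in saline and 7.72, 7.73 and 7.68 in SAHA. Kcnk10, Kcnk13, Kcnk15 and Kcnk18 differed by between 0.010 and 0.061.

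The rule also took in 3 transcripts of the opposite strand and Kcnrg, a regulator of channel assembly. Kcnd3os and Kcnmb4os2 differed by 0.17 (SE 0.087) and 0.17 (SE 0.079), and Kcnmb4os1 by 0.015, while their partners Kcnd3 and Kcnmb4 differed by -0.17 and -0.032. The groups of the 3 transcripts overlapped. Kcnrg differed by -0.018. Among protein-coding genes in RefSeq order, 10 pairs of members are neighbours. Of these, Kcnj9 at -0.21 lies beside Kcnj10 at -0.0065 on chromosome 1, and Kcna10 at 0.24 beside Kcna2 at -0.015 on chromosome 3. On chromosome 14 the neighbours Kcnk5 and Kcnk16 differed by 0.32 and 0.17.

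The direction of the differences went with the signal, among the members as among all genes. Of the 32 members below the median signal, 24 (75.0%) were higher in SAHA, with a median difference of 0.098, against 72.3% and 0.089 over all genes below it. Of the 60 at or above it, 26 (43.3%) were higher, with a median of -0.0067, against 33.6% and -0.039 over all such genes. Spearman's rho of signal and difference was -0.46 over the 92 members and -0.43 over all genes, with Pearson's r of -0.42 and -0.35. These are descriptions across genes that share the same 6 libraries. At an unadjusted p under 0.05, 5 members below the median were higher (15.6%, against 19.6% of such genes) and 1 lower (3.12%, against 2.84%). At or above it 4 were higher (6.67%, against 4.11%) and 2 lower (3.33%, against 8.28%). Kcnk12, Kcnk4, Kcng1 and Kcnh3 are the 4 higher ones at or above the median, and Kcnf1 is the lower one below it. Kcnk12 reached the median of 6.94 only through its SAHA values, with group means of 6.90 in saline and 7.23 in SAHA. Its place among the brighter members therefore depends on the difference itself.

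**Figure D3:**
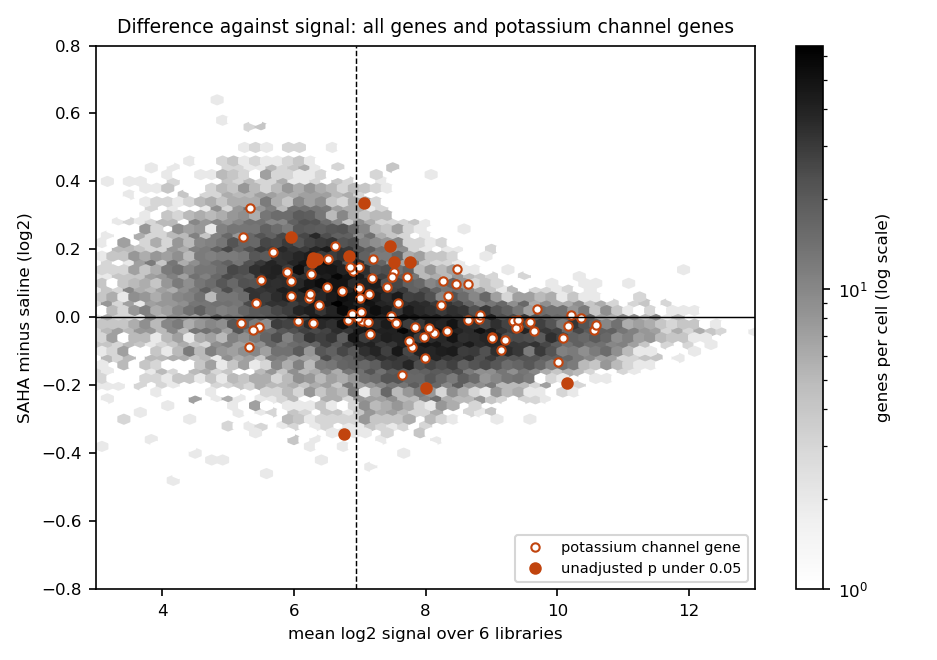
Mean log2 signal over the 6 libraries (horizontal axis) against the difference SAHA minus saline in log2 (vertical axis). Grey cells count all 19938 genes on a log scale, orange circles are the 92 members, filled where the unadjusted p is under 0.05, and the dashed line is the median signal of 6.94; members follow the slope of all genes, with Kcnk12 above and Kcnf1 below it.

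Partners of these channels were taken from a list of proteins that assemble with them. Of 19 auxiliary partners outside the Kcn symbols, 1 was higher and 1 lower at an unadjusted p under 0.05 in limma, against 11.9% and 5.56% of all genes, with a median of -2.9e-05. Lgi1, a secreted protein tied to Kv1 channels, differed by -0.17 (SE 0.064, limma adjusted p = 0.248), with groups that did not overlap. Lrrc52, a gamma subunit of the large-conductance family, differed by 0.27 (SE 0.11, limma adjusted p = 0.263), with overlapping groups. The Kv4 partners Dpp6 and Dpp10 differed by -0.067 and -0.014, Amigo1, a partner of Kv2, by 0.13, and the sulfonylurea receptors Abcc8 and Abcc9 by 0.11 and 0.065. Of 9 measured genes for pumps, cotransporters and pacemaker channels, 1 was higher and 0 lower at an unadjusted p under 0.05 in limma. Over all genes these shares were 11.9% and 5.56%. The higher gene was Hcn3, a hyperpolarization-activated channel with a signal below the median, at 0.28 (SE 0.072, limma adjusted p = 0.147). Hcn2 differed by 0.030 and the neuronal potassium-chloride cotransporter Slc12a5 by 0.018.

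Direction held for all 12 members at an unadjusted p under 0.05 after scaling by array medians, quantiles or cyclic loess. The 12 were picked from these same values, and their p did not stay under 0.05 in every setting. Their groups do not overlap, so leaving out libraries, such as the 2 that stand apart, could not turn a direction. Kcnk12 stayed under 0.05 in 16 of 16 other settings, between 0.28 and 0.38. Of these, the setting limited to genes at or above the median signal took in Kcnk12 only through its SAHA values. Kcnf1 stayed under 0.05 in 15 of the 15 that test it, between -0.40 and -0.25, and Kcna10 in 13 of 15, between 0.13 and 0.26. Kcnk4 did so in 11 of 16, Kcnt2 in 10 of 16, Kcnj9 and Kcng1 each in 9 of 16, and Kcnh3 in 8 of 16. Among the dimmer genes, Kcnn1 did so in 7 of 15, Kcnh8 in 6 of 15, Kcnk16 in 4 of 15 and Kcnk7 in 3 of 15. With those 2 libraries left out, Kcnk12, Kcna10 and Kcnf1 remained under it, at 0.32, 0.21 and -0.28. The other 9 were at 0.14 for Kcnk4 and Kcnk7, 0.15 for Kcnh3 and Kcng1, 0.18 for Kcnh8, 0.19 for Kcnn1, 0.20 for Kcnk16, -0.16 for Kcnt2 and -0.19 for Kcnj9. After median centring 2 members were higher and 5 lower at that p, and after quantile normalization 6 and 2, beside 9 and 3 on the deposited values. Over all genes the split moved too, from 2364 higher and 1108 lower to 1557 and 2024 after median centring and to 1340 and 1285 after quantile normalization.

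**Figure D4:**
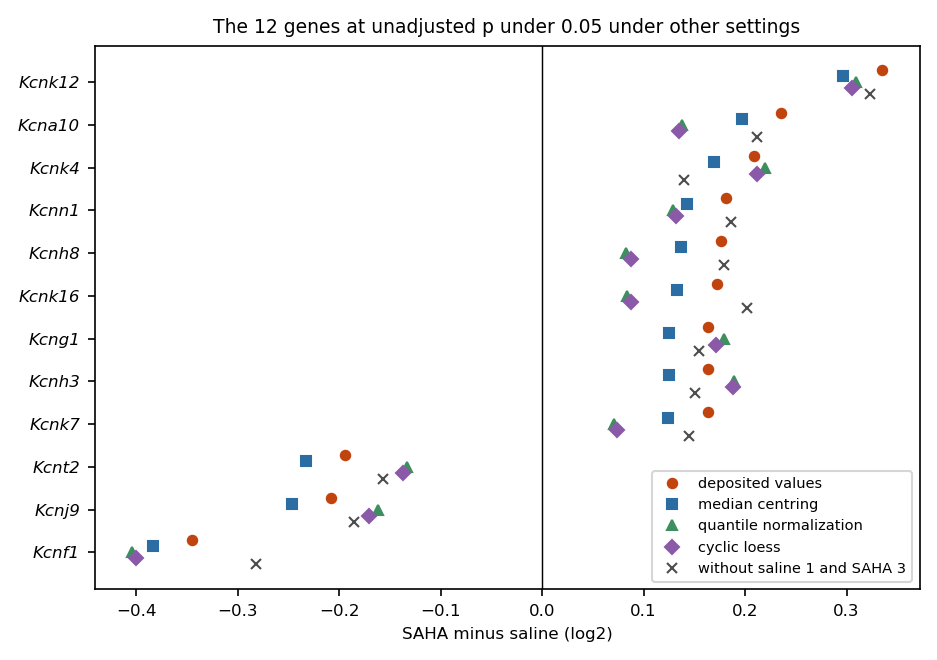
Difference SAHA minus saline in log2 (horizontal axis) of the 12 genes at an unadjusted p under 0.05, on the deposited values, after 3 other scalings and with saline replicate 1 and SAHA replicate 3 left out (symbols). No symbol crosses 0, and Kcnk7, Kcnk16 and Kcnh8 move closest to it after quantile and cyclic loess normalization. With the 2 libraries left out no symbol could cross 0, since the groups of these genes do not overlap. Nor could one after median centring, which moves every gene by the same amount, smaller than these differences.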

How the data were processed

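Total RNA of frontal cortex was amplified (NuGEN) and run on Affymetrix ST arrays, per the labels' protocols. The deposited log2 values, from 1.43 to 14.2, were made by the authors with RMA (background correction, quantile normalization and probe set summary) in Affymetrix Expression Console, which is named in the submitters' processing notes; versions are not given in the sources used here. Of 35556 probe sets, 21789 pair with 1 gene symbol. The brightest per gene was kept, which gave 19938 genes, 92 of them members, all found under the same symbol in RefSeq GRCm38.p6; 3 have 2 probe sets. Groups follow the titles. The groups were compared by limma 3.58.1 (R 4.3.3, lmFit then eBayes), two-sided, over all genes with no filter and with Benjamini-Hochberg adjustment at 0.05. The fit was tested on simulated data with noise drawn independently for each gene. No shift shared over an array was simulated, so that test says nothing on such shifts. Differences are SAHA minus saline; intervals are 95%, not adjusted for the number of genes.

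The members and lists were chosen with earlier results of these data known. Described in full were members at an unadjusted p under 0.05 with separate groups (up to 10 per direction), the smallest p of each subfamily and a fixed cortical set, 15 of whose 17 genes were measured; others are given by their differences. Deviations from group means gave no sign that replicate numbers pair the libraries. They correlated at -0.10, -0.079 and 0.015 for libraries of the same number, and at -0.084 to 0.15 for the others. With 3 libraries per group this cannot exclude a pairing. No set test was made. Protein sequences were not used here.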

Additional observations from a re-analysis of the deposited data

How the results depend on the processing

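The number of arrays limits precision, with a median SE of 0.074 over the members, and dim members are measured least well. No member passed the adjusted threshold in any of the 16 other settings, and over all genes limma called 27 genes at or above the median signal, 28 once the variance followed a trend in signal and 31 once that trend was fitted robustly. The cause of the shifts below was not tested unless stated. Members at an unadjusted p under 0.05, 12 as reported, numbered 7 after median centring (18.0% of all genes), 7 after cyclic loess (13.1%), 7 among the 60 members at or above the median signal (fewer genes tested, 19.1%) and 6 without saline replicate 1 and SAHA replicate 3 (10.4%), 3 of them among the 12. At an unadjusted p under 0.01 there were 2, Kcnk12 and Kcna10 (5.62%). Leaving out 1 library gave 6 (without saline replicate 2) to 17 (without SAHA replicate 2), with 7 without SAHA replicate 1 and 7 without SAHA replicate 3, while all genes gave 12.2% to 19.4%. The replicate block gave 8, all among the 12, and 5 in place of 9 higher (15.5% of all genes). Array weights gave 17 (18.2%). Members whose groups do not overlap, 20 as reported, numbered 13 after median centring (25.3% of all genes), 11 at or above the median signal (24.5%), 41 without saline replicate 1 and SAHA replicate 3, where 42.3% of all genes did, and 23 to 39 with 1 library left out, 39 without SAHA replicate 2 (41.2% of all genes) and 30 without saline replicate 1 (31.1%); fewer libraries overlap less. The median difference, 0.013, turned to -0.026 after median centring and -0.0067 at or above the median signal, and ran from 0.012 to 0.035 (without SAHA replicate 2) with 1 library left out. Over 581 other values of the 37 named members, 75 lost and 10 gained an unadjusted p under 0.05. Signs turned in 43 values of 15 members, 0 of them among the 12. For those 12, leaving out libraries could not turn a sign, since their groups do not overlap. Nor could median centring, which moves every gene by the same amount, smaller than these differences.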
